A study of Mus musculus with 2 samples.

Results

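Calm4, Calm5 and Capns2 are 3 genes of the 379 on the mouse panel, chosen by name as the epidermal calmodulin-like and calpain genes, and every transcript of them with a quality score of at least 20 was used. The score is the confidence given to each decoded transcript. RNA was measured in place with Xenium In Situ, which detects single transcripts of a gene panel at their position in a tissue section, in 5-µm sections of fixed and paraffin-embedded dorsal skin. The SspA+HDM group was skin of C57BL/6 mice to which SspA and HDM had been applied epicutaneously, and the mock group was skin of the same strain given PBS in the same way. Both groups had been shaved and depilated, and both were taken on day 7. There was 1 section per group, so no test was possible, no difference has a replicate check, and every interval given here is a 95% interval of counting error. Each section held 2 strips of skin, which are given side by side; whether they came from different animals is not stated in the labels, nor are the age and number of the animals. The SspA+HDM section gave 8124205 transcripts in 46142 cells and the mock section 2461475 in 15932 cells, with 97.6% and 94.5% of them inside a cell outline. No cell identifier occurred in both sections.

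Calm4 and Calm5 encode small proteins of the calmodulin family, which bind calcium through EF-hand motifs, and in the mouse they are known from keratinocytes that leave the basal layer and differentiate. The concentration of free calcium rises from the basal to the granular layer of the epidermis, and keratinocytes read this gradient as they move outwards. Capns2 encodes a second small subunit of the classical calpains, cysteine proteases that calcium activates and whose large subunits need a small one.

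Calm4 and Calm5 lie next to each other in the same orientation. In the RefSeq annotation of GRCm38.p6, Calm4 spans chr13:3837757-3838671 and Calm5 chr13:3854173-3854761, with 15501 bases between them. Calml3, a further calmodulin-like gene of the same stretch (chr13:3802893-3804318), is not on the panel. Capns2 spans chr8:92901395-92902409, inside the annotated span of Lpcat2 (chr8:92855313-92919279). The sequences upstream of Calm4 and Calm5 are shown because they are nearly the same in the pair of genes whose levels are compared below. They are the plus strand of GRCm38.p6 from RefSeq, chr13:3837551-3837756 for Calm4, which ends at the base before its annotated start, and chr13:3853923-3854128 for Calm5, with the differing base in capitals:
Calm4: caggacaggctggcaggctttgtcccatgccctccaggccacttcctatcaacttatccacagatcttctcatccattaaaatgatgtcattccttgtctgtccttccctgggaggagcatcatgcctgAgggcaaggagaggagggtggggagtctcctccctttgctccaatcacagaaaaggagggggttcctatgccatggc
Calm5: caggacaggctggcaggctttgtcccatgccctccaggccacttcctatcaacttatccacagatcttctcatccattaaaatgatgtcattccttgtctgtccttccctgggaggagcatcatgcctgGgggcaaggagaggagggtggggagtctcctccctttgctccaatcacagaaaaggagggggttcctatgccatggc
Of these 206 bases 205 were identical. The single difference was A130G, counted from 1 at the left end with the base of Calm4 first. Over all 256 bases that the 300-base windows of the genes share, 255 were identical (99.6%), and the differing base lies 77 bases before the annotated start of Calm4 and 121 bases before that of Calm5.

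A few short motifs were searched on both strands in the 250 bases before each start. CCAAT occurred 1 time each in Calm4 and Calm5 and not in Capns2, and 33.8% of the 32851 RefSeq promoters hold it. An AP-2 type motif, GCC and GGC with any 4 bases between them, occurred 1 time each in Calm4 and Calm5, at the stretch that holds the differing base, and 12.3% of all promoters hold it. TGANTCA (6.75% of promoters) and TATAAA (12.4%) were in none of the 3 windows. No 2 of these motifs overlapped in the 3 genes. Matches are descriptions of letters and not of binding. The probe sequences were not used here, so whether a probe of Calm4 or Calm5 also reads the other gene was not tested.

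The first comparison asked how much of each RNA the whole section held, as CPM, the counts in cells scaled to a panel total of 1000000. Calm4 was at 44102 and 44319 CPM in the 2 strips of SspA+HDM skin, against 25541 and 25222 CPM in the strips of mock skin. It ranked 2 of the panel in SspA+HDM and 7 in mock, and the ratio of the sections was 1.74 (1.73 to 1.76). Calm5 was at 12449 and 12577 CPM in SspA+HDM, against 4028 and 4247 CPM in mock, a ratio of 3.02 (2.96 to 3.09). The strips of a section lay close together and the sections did not overlap for either gene.

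Capns2 did not separate the sections on this scale. It was at 2534 and 2539 CPM in SspA+HDM, against 2404 and 2618 CPM in mock, a ratio of 1.01 (0.979 to 1.04). Calm5 was thus the only one of the 3 past a 2-fold difference. The background was 346 genes that had 100 or more transcripts in either section. Of them 14.7% were higher in SspA+HDM by 2-fold or more and 12.7% lower by as much, with a median log2 ratio of 0.046.

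Per mm of strip all 3 were higher in SspA+HDM. Calm4 had 23997 transcripts per mm in SspA+HDM and 4623 in mock, Calm5 6526 and 736, and Capns2 1320 and 449. The whole panel had 528392 and 184555 transcripts per mm. These counts include transcripts where no surface could be fitted, while the length is that of the fitted stretches alone. Without those transcripts Calm4 had 21678.4 and 26184.5 per mm in the strips of SspA+HDM, and 4552.1 and 4545.9 in mock. Calm5 had 5864 and 7171, against 695 and 751, and Capns2 1194 and 1444, against 423 and 463. A whole-section level cannot tell more cells of a kind from more RNA in each cell, so the levels were taken apart by position in the skin.

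The epidermis was taken as the space between the skin surface and the outermost cells that are not epithelial. It measured 92.6 µm on average in SspA+HDM and 42.7 µm in mock, as area per length. It held 88.6% of Calm4 in SspA+HDM and 91.8% in mock, 96.4% and 94.8% of Calm5, and 60.1% and 73.9% of Capns2. Follicle epithelium, the epithelial cells below that space, held 5.80% and 2.99% of Calm4, 2.05% and 1.71% of Calm5, and 36.1% and 21.5% of Capns2. Calm4 and Calm5 were therefore nearly all epidermal in both sections, whereas Capns2 was shared between epidermis and follicles.

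**Figure D1:**
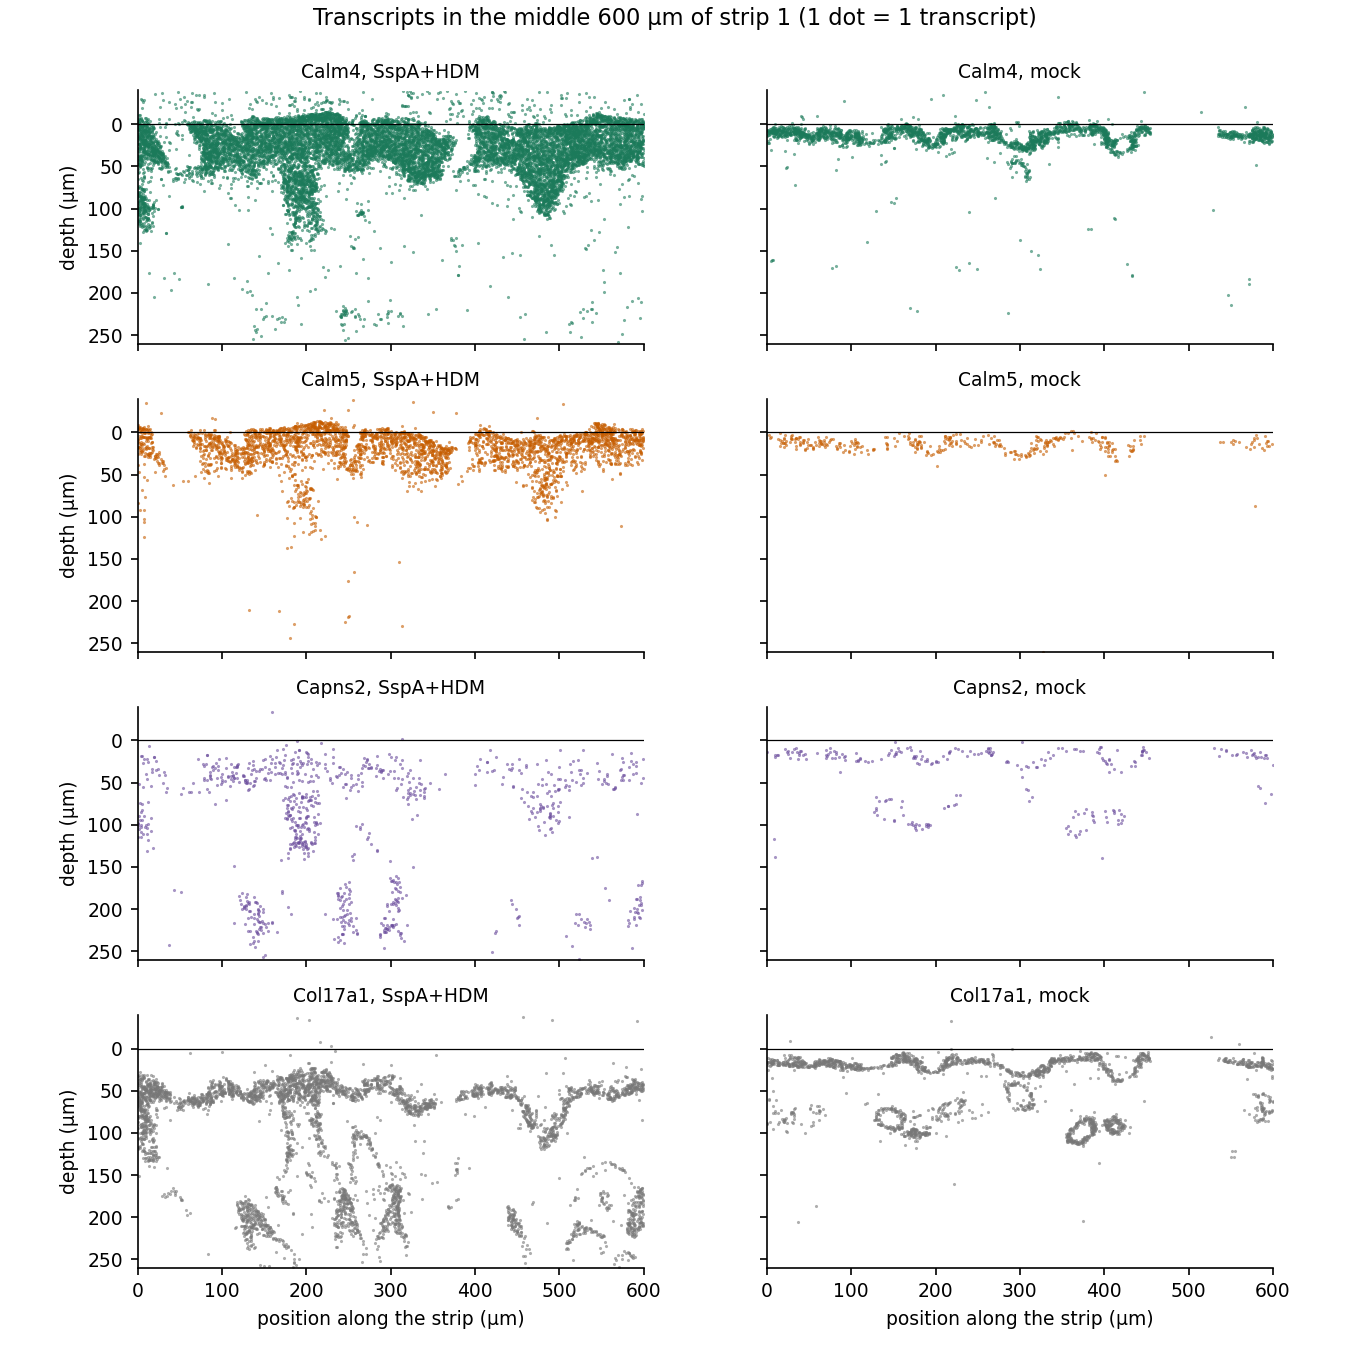
Positions of single transcripts of Calm4, Calm5, Capns2 and Col17a1, a basal keratinocyte collagen shown for orientation, in the middle 600 µm of strip 1 of SspA+HDM skin (left) and mock skin (right). Depth runs downwards from the fitted surface in µm, and places where no surface could be fitted are empty. This stretch held 12429 Calm4, 3418 Calm5 and 915 Capns2 transcripts in SspA+HDM, against 2568, 374 and 270 in mock, with Capns2 in follicles where Calm5 is sparse.

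Within the epidermis, scaled to its own panel total, Calm5 was higher and Capns2 lower in SspA+HDM, and Calm4 differed little. Calm4 was at 86629 and 88216 CPM in the strips of SspA+HDM, against 81349 and 82975 CPM in mock, a ratio of 1.06 (1.05 to 1.07). Calm5 was at 25545 and 26167 CPM in SspA+HDM, against 12881 and 14080 CPM in mock, a ratio of 1.92 (1.88 to 1.96). Capns2 was at 3153 and 3357 CPM in SspA+HDM, against 5975 and 6839 CPM in mock, a ratio of 0.508 (0.491 to 0.526). Calm4 thus made up nearly the same share of epidermal transcripts in both sections, Calm5 a larger one in SspA+HDM and Capns2 a smaller one.

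None of the 3 reached 2-fold in the epidermis. Of 238 genes measured there, 16% were higher in SspA+HDM by 2-fold or more and 38.2% lower, and the median log2 ratio was -0.64. The log2 ratio of Capns2 was -0.98, that of Calm4 0.090 and that of Calm5 0.94. The scale matters here, because the epidermis held 2624 panel transcripts per 1000 square µm in SspA+HDM and 1209 in mock. Per area, Calm4 had 230 transcripts per 1000 square µm in SspA+HDM and 99.4 in mock, Calm5 67.9 and 16.3, and Capns2 8.57 and 7.77, so the direction of Capns2 turned to a ratio of 1.10 on that scale. The area taken as epidermis reached further past the basal marker in mock. The upper quartile of Col17a1 depth was 23.4 µm there, with 42.7 µm of epidermis on average. In SspA+HDM it was 84.9 µm, with 92.6 µm of epidermis. The part of this in the values per area, the panel's included, was not tested.

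To compare like positions in epidermis of different thickness, each place was set between 2 local midlines: the median position of Lor, loricrin of the granular layer and cornified envelope, and the median position of Col17a1. This scale was chosen after the data had been seen. The midlines lay 45.0 and 45.2 µm apart in the strips of SspA+HDM and 8.23 and 8.55 µm apart in mock, where the distance is about that of a single cell and zones blur into each other. Calm5 had its median at 0.16 of the way from the Lor to the Col17a1 midline in SspA+HDM and at 0.45 in mock. For Calm4 the medians were at 0.41 and 0.39, and for Capns2 at 0.78 and 0.93. In SspA+HDM the order from outside to inside was Calm5, Calm4, Capns2, and in mock it was Calm4, Calm5, Capns2, with Calm4 and Calm5 close together.

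Outside the Lor midline Calm5 reached its highest level of the 4 zones in SspA+HDM, but not in mock. It was at 50222 and 50770 CPM in the strips of SspA+HDM, against 16201 and 16078 CPM in mock, a ratio of 3.13 (2.99 to 3.28). In the upper suprabasal zone the ratio was 1.93 (1.85 to 2.01), in the lower suprabasal zone 0.991 (0.946 to 1.04), and inside the Col17a1 midline 0.836 (0.791 to 0.883). On this scale Calm5 was higher in SspA+HDM in both outer zones, did not separate the sections in the lower suprabasal zone and was lower inside the Col17a1 midline. In SspA+HDM the level of Calm5 dropped by zone from the outside inwards, to 34729, 15066 and 7021 CPM, while in mock these zones had 18034, 15204 and 8402 CPM.

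Calm4 was highest outside the Lor midline in both sections. Outside the Lor midline it was at 117596 and 116437 CPM in the strips of SspA+HDM, against 113539 and 112322 CPM in mock. The ratios of the 4 zones, from outside to inside, were 1.04, 0.872, 1.04 and 1.13. Only in the upper suprabasal zone of the 4 was Calm4 lower in SspA+HDM.

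Capns2 was lower in SspA+HDM in every zone, and most so at the outside. Outside the Lor midline it was at 460 and 491 CPM in the strips of SspA+HDM, against 2333 and 2985 CPM in mock, a ratio of 0.178 (0.152 to 0.209) from 301 and 337 transcripts. The ratio was 0.433 in the upper suprabasal zone, 0.636 in the lower one and 0.597 inside the Col17a1 midline. Where the midlines lie about 1 cell apart, as in mock, transcripts of inner cells can be counted in the outer zone, and the part this has in the ratio was not tested.

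Another division gave other inner ratios. The space between the surface and the lower edge was also split by relative depth into outer, middle and inner layers, without the midlines. Calm5 was then higher in SspA+HDM in all 3 layers, with ratios of 2.56 (2.48 to 2.64), 1.49 (1.45 to 1.54) and 1.50 (1.36 to 1.64) from outer to inner. Calm4 had ratios of 0.909 (0.898 to 0.921), 1.20 (1.19 to 1.22) and 1.68 (1.63 to 1.75), so that among these 3 layers its largest difference was in the inner one. Capns2 had ratios of 0.271 (0.252 to 0.292), 0.514 (0.490 to 0.538) and 0.782 (0.717 to 0.855). The counts above the surface that were kept as epidermis lie outside these layers. There the ratio was 1.82 (1.72 to 1.92) for Calm4, larger than in any of the layers. For Calm5 it was 6.01 (5.05 to 7.20). Capns2 had only 89 transcripts there in SspA+HDM and 42 in mock. What both divisions share is that Calm5 was higher and Capns2 lower at the outside, with the widest differences there. How Calm4 and Calm5 compared deeper in the epidermis depended on the division. Like relative depths need not hold like tissue. The median depth of Col17a1 was 18.1 µm in mock, where the epidermis measured 42.7 µm on average. In SspA+HDM it was 61.0 µm of 92.6 µm. The inner layer of mock thus lay further past the basal marker, and the part this has in the inner ratios was not tested.

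**Figure D2:**
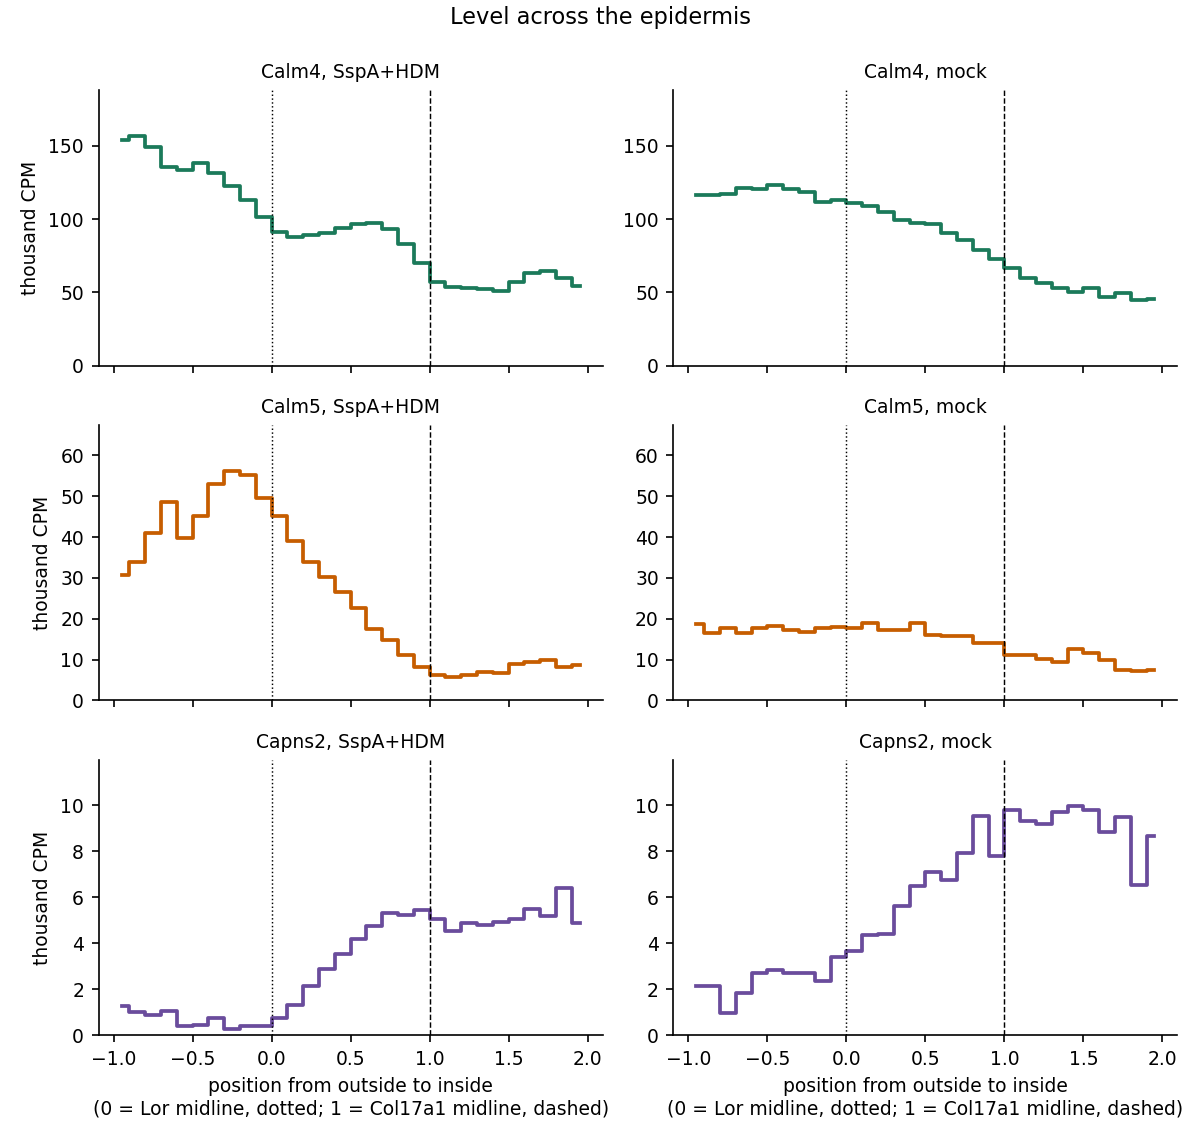
Level of each gene, as 1000 CPM of all panel transcripts at that position, against the position from outside to inside of the epidermis, for SspA+HDM (left) and mock (right). The dotted line marks the Lor midline and the dashed line the Col17a1 midline. Calm5 peaks near the Lor midline in SspA+HDM and has no such peak in mock, and Capns2 climbs inwards in both.

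**Figure D3:**
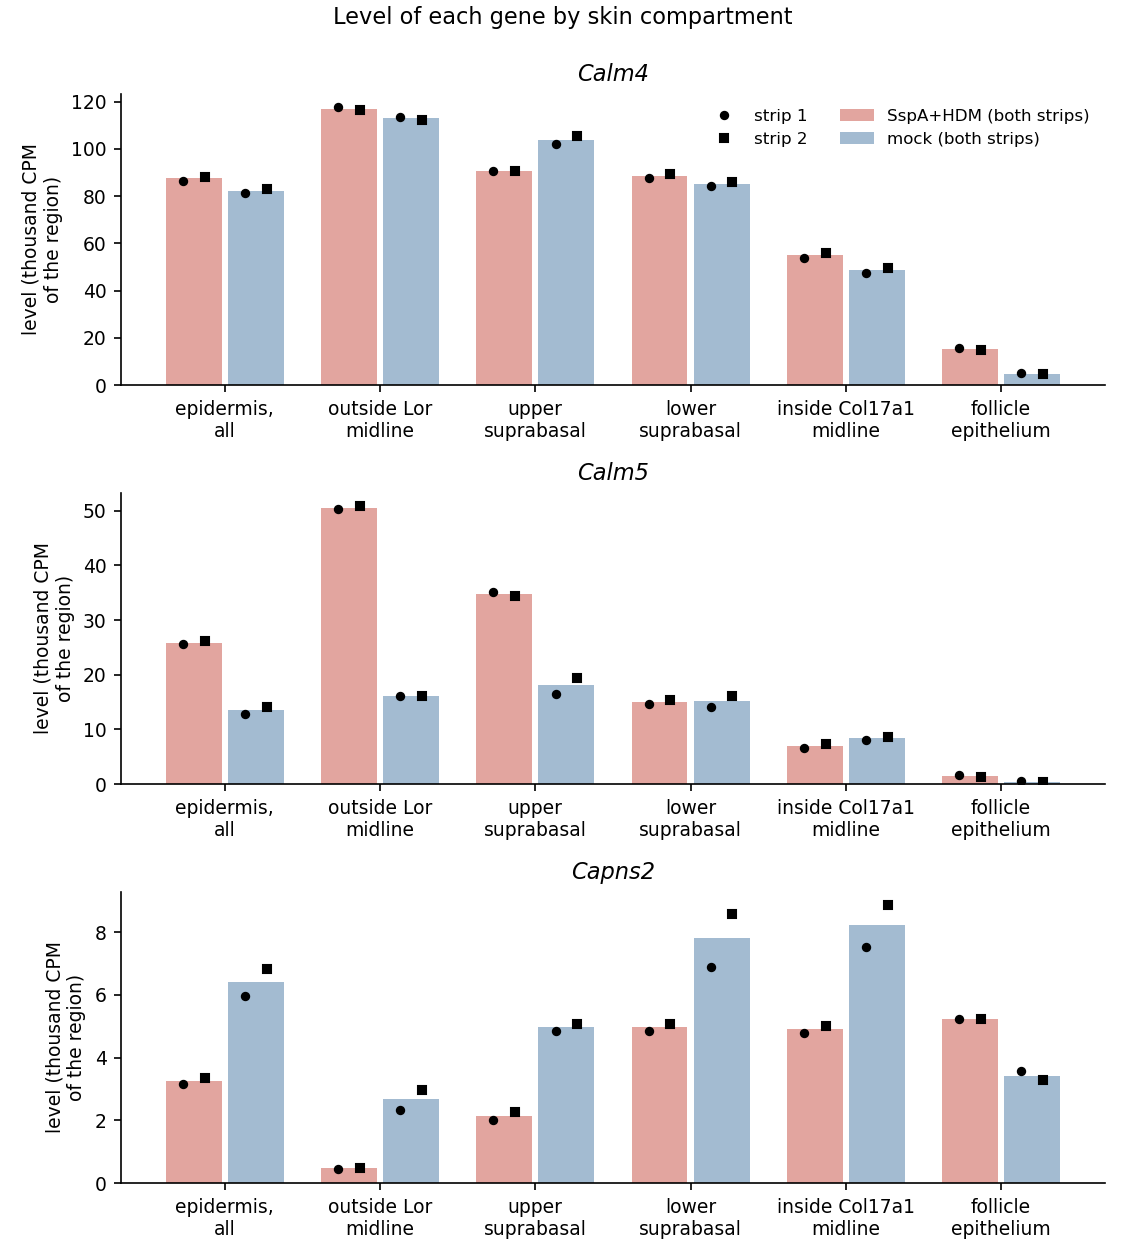
Level of each gene in the epidermis, its 4 zones and the follicle epithelium, in units of 1000 CPM of the region. Bars give SspA+HDM (left of each pair) and mock over both strips, circles strip 1 and squares strip 2. Outside the Lor midline Calm5 had 50532 CPM in SspA+HDM and 16137 CPM in mock, and Capns2 477 and 2675.

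The ratio of the neighbours Calm4 and Calm5 to each other showed the same pattern without any scaling to the panel. The epidermis held 3.38 Calm4 transcripts per Calm5 transcript in SspA+HDM and 6.09 in mock. Outside the Lor midline the ratio was 2.31 in SspA+HDM and 7.00 in mock, and inside the Col17a1 midline it was 7.83 and 5.78. Across epithelial clusters with at least 50 cells and 20 Calm5 transcripts, it ran from 2.10 to 18.2 in SspA+HDM and from 4.30 to 18.9 in mock. The counts of the 2 genes did not keep a fixed ratio from place to place.

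Single cells showed how these levels were spread. There were 12719 epithelial cells in the epidermis of SspA+HDM and 3574 in mock, with a median of 245 and 163 panel transcripts. The median cell held 21 Calm4 transcripts in SspA+HDM and 13 in mock, 3 and 2 Calm5 transcripts, and 0 and 1 Capns2 transcripts. The 90th percentile over cells was 52 and 34 for Calm4, 21 and 6 for Calm5 and 3 and 3 for Capns2.

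Each cell was thinned to 60 transcripts to put the depths on a par, which left out 485 cells in SspA+HDM and 298 in mock. Calm4 was then seen in 95.5% of the epidermal cells in both sections (95.1 to 95.8% in SspA+HDM, 94.7 to 96.2% in mock), and unthinned in 97.6% and 96.5%. Calm5 was seen in 54.3% of thinned cells in SspA+HDM and 52.4% in mock, unthinned in 73.5% and 75.2%, while its mean was 1.23 and 0.801 transcripts per thinned cell. Capns2 was seen in 20.3% of thinned cells in SspA+HDM and 34.1% in mock, unthinned in 49.7% and 61.7%. Calm5 was thus detected in a like share of epidermal cells in both sections, with more transcripts per cell in SspA+HDM.

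Cells that should lack these genes gave the background. Among skeletal muscle-like cells of the clusters led by Actn3, with a median of 266 transcripts per cell in SspA+HDM and 276 in mock, thinned shares were 3.48% and 1.49% for Calm4, 0.221% and 0.0466% for Calm5, and 0.368% and 0.233% for Capns2. The levels there were 511 and 210 CPM of Calm4, 39.5 and 15.2 CPM of Calm5, and 36.4 and 17.9 CPM of Capns2. Epidermal shares were far above these.

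The share of transcripts lying over the nucleus set Calm5 apart from Calm4. In the epidermis 21.9% of Calm5 transcripts in cells were over the nucleus in SspA+HDM (21.6 to 22.1%), against 36.8% in mock (35.9 to 37.8%). For Calm4 the shares were 30.9% and 27.9%, for Capns2 44.4% and 49.4%, and for the whole panel 33.9% and 35.3%. Calm5 was less nuclear than Calm4 in SspA+HDM and more nuclear than Calm4 in mock.

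Calm5 was less nuclear in SspA+HDM than in mock in each zone set by the midlines, and least so at the outside. Outside the Lor midline its shares were 13.9% in SspA+HDM and 19.5% in mock, beside 18.6% and 20.7% of the panel. Because zones blur into each other in mock, like zones need not hold like positions. The part of position in this difference was not tested. In the upper suprabasal zone 21.5% of Calm5 was nuclear in SspA+HDM and 34.8% in mock, beside 28.3% and 32.4% of the panel. In the lower suprabasal zone the shares of Calm5 were 33.0% and 47.4%, beside 41.9% and 44.8% of the panel, and inside the Col17a1 midline 35.9% and 48.7%, beside 43.1% and 39.8%. For Calm4 the shares from outside to inside were 17.7%, 28.2%, 38.8% and 40.9% in SspA+HDM. In mock they were 17.3%, 26.3%, 36.4% and 36.5%. Outside the Lor midline the intervals of Calm4 overlapped (17.4 to 18.0% and 16.6 to 17.9%). In the other zones Calm4 was more nuclear in SspA+HDM. Counted over nuclei alone, the whole-section log2 ratio of Calm5 was 0.57, against 1.60 over whole cells. Outlines and nuclei are flat projections of a 5-µm section, and cell size, which also sets the nuclear share, was not tested here.

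All cells of 20 or more transcripts were put into joint clusters from which the 3 genes were left out, and clusters are given by number. The outermost epithelial cluster of SspA+HDM was cluster 11, with 1948 cells at a median depth of 7.87 µm, led by Stfa2l1, Cnfn and Uox, and with 0 cells in mock. The outermost of mock was cluster 22, with 505 cells at 2.37 µm, led by Lce1m, Gm94 and Ivl, and with 6 cells in SspA+HDM. A cluster found in 1 section may be that section and not a cell type. Cluster 11 of SspA+HDM had 108981 CPM of Calm4, against 110092 CPM in cluster 22 of mock (ratio 0.990, 0.971 to 1.01). It had 51933 CPM of Calm5, against 18283 CPM (ratio 2.84, 2.71 to 2.97), and 381 CPM of Capns2, against 1501 CPM (ratio 0.254, 0.209 to 0.309).

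In the clusters below cluster 11 of SspA+HDM, Calm5 was lower with depth. Cluster 16, at a median depth of 25.0 µm, had 88498 CPM of Calm4, 35041 CPM of Calm5 and 1851 CPM of Capns2. Cluster 4, at 45.3 µm, had 99742, 20655 and 4687 CPM, and cluster 2, at 60.4 µm and with Col17a1 and Aqp3 among its leading genes, had 56529, 4058 and 4434 CPM. In mock most of the remaining epidermis was cluster 9, with 2681 cells at 16.7 µm and 84620, 14192 and 7776 CPM. Clusters 11 and 16 held 8.01% of the clustered cells of SspA+HDM and 67.2% of the Calm5 in clustered cells, but 42.9% of the Calm4 and 7.90% of the Capns2. Their cells were rich in transcripts, with 1509106 of the 7929474 panel transcripts in cells of that section. The share of cells is thus smaller than their share of panel transcripts.

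**Figure D4:**
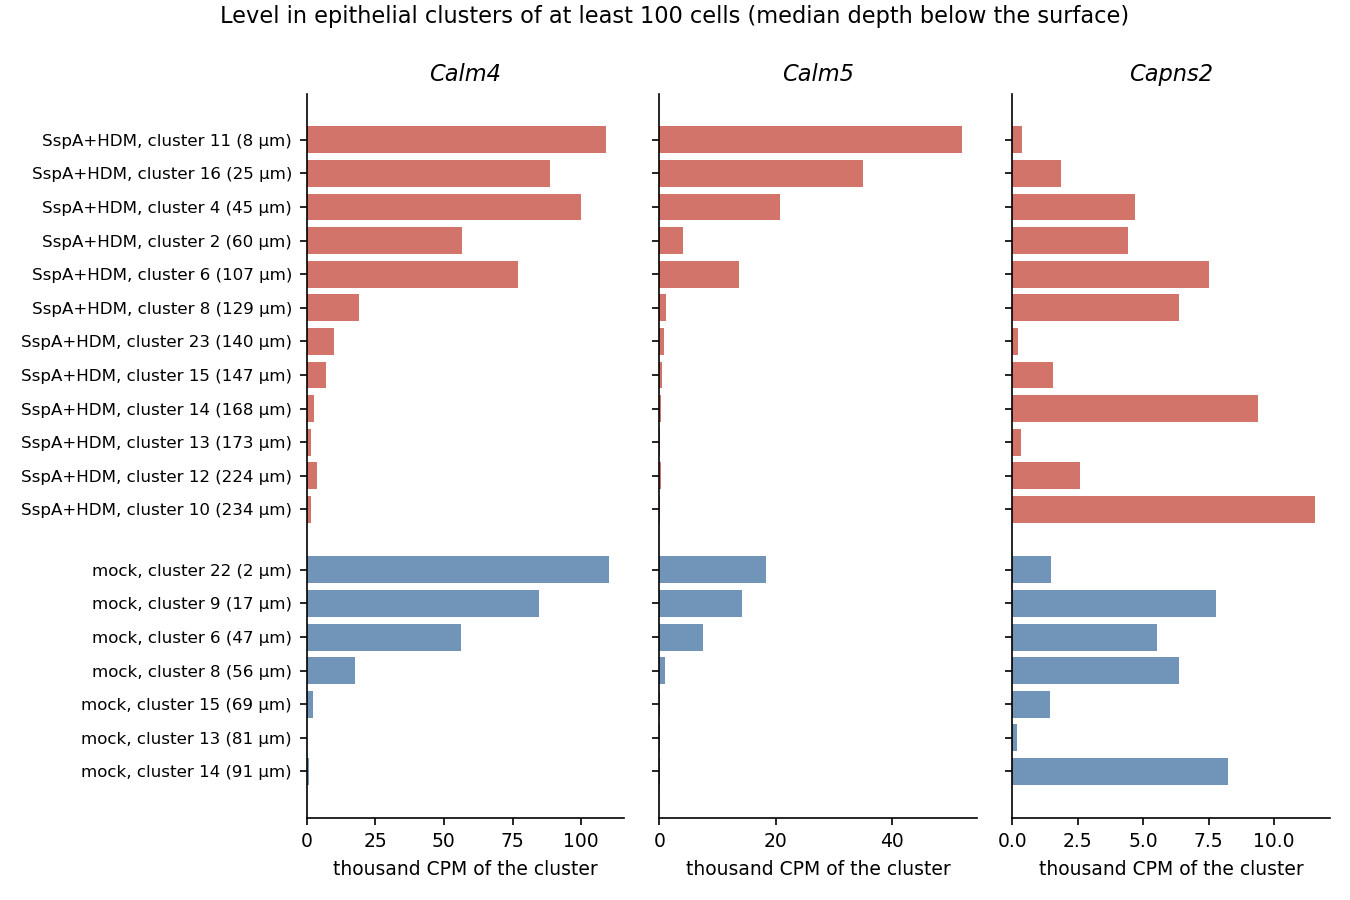
Level of each gene in epithelial clusters of at least 100 cells, in units of 1000 CPM of the cluster, ordered within each section from the outermost to the deepest by the median depth of their cells (in brackets). SspA+HDM is above and mock below. Calm4 and Calm5 are highest in the outermost clusters, and Capns2 is highest in the follicle clusters 10 and 14.

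Follicle epithelium, unlike the epidermis, had all 3 genes higher in SspA+HDM as shares of the panel. Calm4 was at 15865 and 14701 CPM in the strips of SspA+HDM, against 5316 and 4531 CPM in mock, a ratio of 3.12 (2.97 to 3.27). Calm5 was at 1655 and 1296 CPM in SspA+HDM, against 507 and 394 CPM in mock, a ratio of 3.29 (2.81 to 3.87). Capns2 was at 5223 and 5219 CPM in SspA+HDM, against 3581 and 3290 CPM in mock, a ratio of 1.52 (1.44 to 1.62). The strips of the 2 sections did not overlap for any of them. Calm4 and Calm5 were past 2-fold, where 20.9% of 225 genes measured there were higher by 2-fold or more and 9.33% lower. The direction was not particular to follicles. In the skeletal muscle-like cells Calm4 was at 511 CPM in SspA+HDM and 210 CPM in mock. Calm5 was there at 39.5 and 15.2 CPM, and Capns2 at 36.4 and 17.9 CPM. The part of such background in the follicle ratios was not tested.

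The makeup of the follicle epithelium differed between the sections. By position it takes in cluster 6, an unnamed cluster led by Slc5a1, Rbp2 and Ivl and split between epidermis and follicle. Cluster 6 held 173749 of the 1401895 follicle transcripts of the panel in SspA+HDM and 19958 of 376487 in mock. It alone held 53.9% of the follicle Calm4 in SspA+HDM and 47.3% in mock. Over all its cells, the ratio of the sections was 1.37 for Calm4 and 1.82 for Calm5. Hair follicle-like clusters 10, 14 and 15 held 1.97%, 0.608% and 6.62% of the follicle Calm4 in SspA+HDM. In mock they held 0.217%, 4.61% and 13.7%. The part of makeup in the follicle ratios was not tested. In the epithelial clusters named hair follicle-like, 10, 14 and 15, Calm4 was at 3943 CPM in SspA+HDM and 1700 CPM in mock. Calm5 was there at 241 and 152 CPM, and Capns2 at 7194 and 4787 CPM. All of these levels were above those in muscle cells. The clusters that are not epithelial had in all 3039 CPM of Calm4 in SspA+HDM and 689 CPM in mock, 317 and 63.6 CPM of Calm5, and 236 and 145 CPM of Capns2. In SspA+HDM the follicle-like clusters were below this non-epithelial level for Calm5 and little above it for Calm4. In mock they were above it for both. In SspA+HDM 481 of its 917 Calm5 transcripts lay in the 77 cells of cluster 24, at 21377 CPM. Actn3, Pvalb and Stfa2l1 were among the leading genes of that cluster. Macrophage-like cluster 0 of SspA+HDM had 7480 CPM of Calm4 and 431 CPM of Calm5. Both values were above those of the follicle-like clusters of that section. Whether Calm4 or Calm5 in the follicle-like clusters of SspA+HDM was above background was thus not settled.

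Cluster by cluster the ratio of Capns2 varied. Cluster 14, led by Lhx2, Krt13 and Tbx1, had 9399 CPM in SspA+HDM (487 cells) and 8236 CPM in mock (1318 cells), a ratio of 1.14 (1.02 to 1.27). Cluster 15, led by Crct1 and Krt79, had 1553 and 1447 CPM, a ratio of 1.07 (0.887 to 1.30). Cluster 8, keratinocyte-like and led by Sostdc1 and Vsnl1, had 6378 and 6385 CPM, a ratio of 0.999 (0.878 to 1.14), and cluster 6 had 7521 and 5546 CPM, a ratio of 1.36 (1.19 to 1.55). Cluster 10, led by Lhx2 and Tbx1, had 11551 CPM in SspA+HDM (2309 cells) and 6094 CPM in mock (45 cells). The part of these cell numbers in the follicle ratio was not tested.

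Within a section Capns2 differed more between follicle clusters than between the sections. In cluster 13, unnamed and led by Hsd3b4 and Krt79, it was at 335 CPM in SspA+HDM and 166 CPM in mock, at a median depth close to that of cluster 14 in either section. In the dividing cells-like cluster 12, which shares Lhx2 and Tbx1 with cluster 10, it was at 2586 CPM in SspA+HDM. Calm4 was higher in SspA+HDM in clusters 13, 14 and 15, at 1585, 2583 and 7009 CPM, against 248, 824 and 2537 CPM in mock. The Calm4 level in muscle cells moved the same way, and its part in these values was not tested.

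Along the strips all 3 genes varied. The epidermis was split into windows of 500 µm, 30 in SspA+HDM and 28 in mock. Calm5 ran from 15682 to 35206 CPM with a median of 24890 in SspA+HDM, and from 10310 to 18339 CPM with a median of 13058 in mock. Capns2 ran from 1795 to 5367 CPM with a median of 3442, against 3951 to 9212 CPM with a median of 6651. Calm4 ran from 77673 to 95981 CPM with a median of 88256, against 70935 to 98674 CPM with a median of 81262. Relative to its lowest window, Capns2 had the widest range in both sections. The windows of the sections overlapped for all 3 genes.

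Both strips of SspA+HDM had more Calm5 on the right-hand side and more Capns2 on the left. Calm5 was at 20967 and 21291 CPM on the left-hand side of the 2 strips and at 28662 and 29559 CPM on the right-hand side, and Capns2 at 4031 and 4300 CPM on the left and 2556 and 2702 CPM on the right. The mock strips had 13556 and 14625 CPM of Calm5 on the left and 12264 and 13553 CPM on the right, and 6145 and 7730 CPM of Capns2 on the left and 5820 and 5977 CPM on the right. Capns2 was thus higher on the left in both sections. The ratio of SspA+HDM to mock was 1.50 for Calm5 on the left and 2.25 on the right, 0.598 and 0.447 for Capns2, and 1.07 and 1.06 for Calm4. Windows at like positions of the 2 strips of SspA+HDM correlated at 0.957 for Calm5, 0.908 for Capns2 and 0.795 for Calm4 (Pearson, 15 windows, across sites and not samples), and at 0.912 for the number of panel transcripts per window. In mock the correlations were 0.828, 0.633 and 0.523 over 14 windows, and -0.159 for the panel. The strips share a slide and treatment and lie side by side, so this describes how alike they are.

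**Figure D5:**
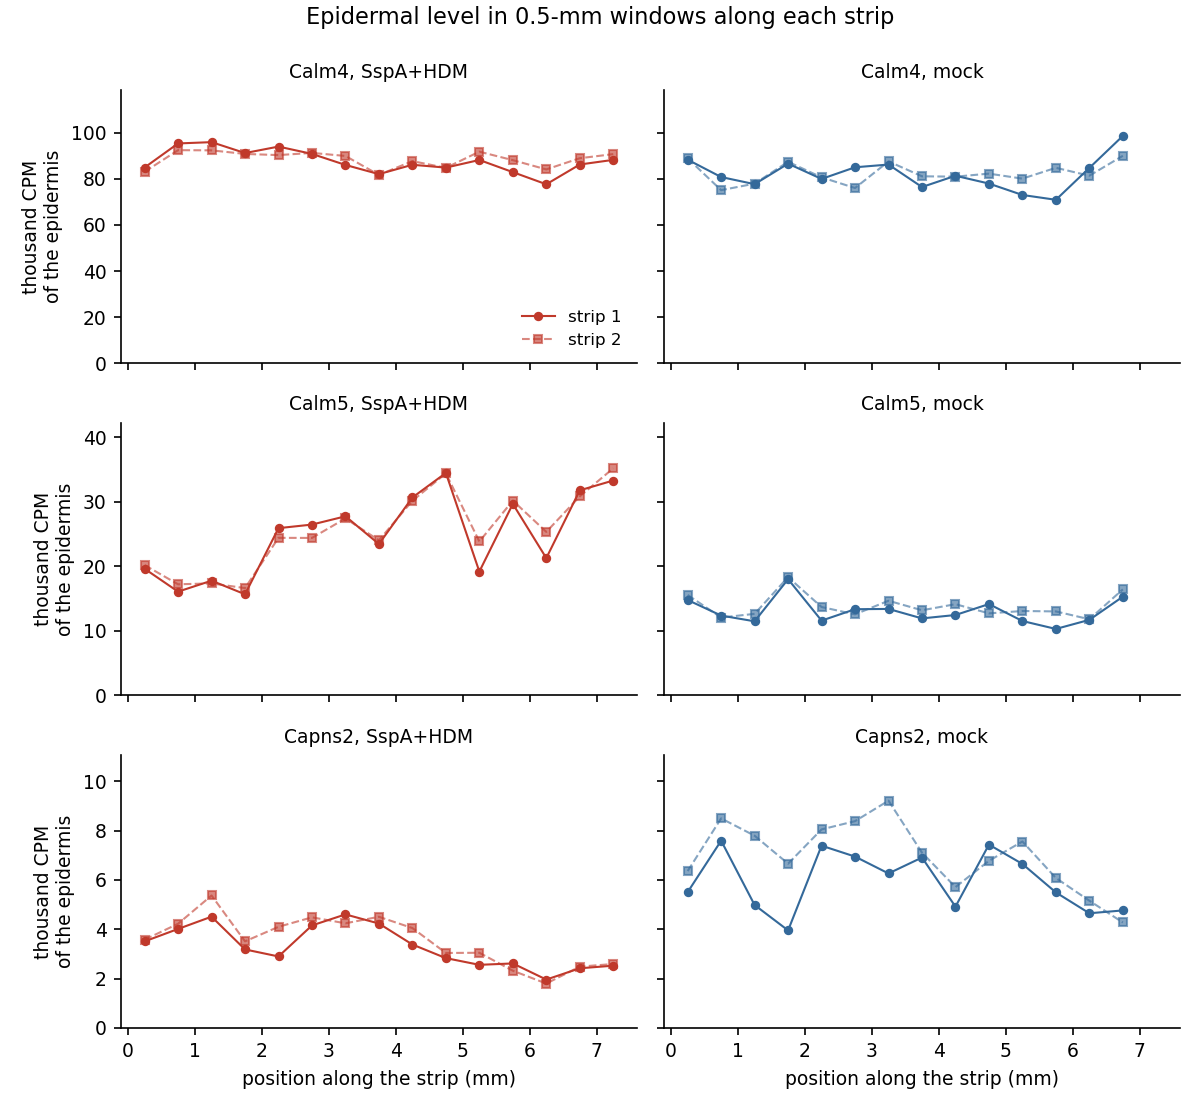
Level of each gene in the epidermis in windows of 500 µm along each strip, in units of 1000 CPM, for SspA+HDM (left) and mock (right). Circles and solid lines are strip 1, squares and dashed lines strip 2. In SspA+HDM Calm5 is between 15682 and 20205 CPM in the first 4 windows of both strips and reaches 34484 and 34422 CPM at 4.5 mm, with the strips running together.

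Among the 3 genes, Calm4 had the largest share outside cell outlines. Of Calm4 4.96% lay outside cells in SspA+HDM (4.89 to 5.03%) and 4.32% in mock (4.16 to 4.48%). Of Calm5 it was 1.08% and 1.85%, and of Capns2 0.892% and 2.22%, beside 2.40% and 5.53% of the whole panel. In SspA+HDM Calm4 was the only one of the 3 above the panel's share, and in mock all 3 were below it. Among the epidermal genes set beside them, Lor (11.4%), Asprv1 (5.35%) and Krt16 (5.05%) had larger shares than Calm4 in SspA+HDM. The rest had smaller ones, such as Sbsn (1.99%) and Ivl (1.02%).

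Many of these transcripts were beyond the tissue. Of the Calm4 outside cells 61.9% in SspA+HDM and 44.3% in mock lay more than 50 µm above the surface, outside the fitted tissue. Calm4 made up 17.1% of all transcripts there in SspA+HDM, the highest of the panel, and 4.81% in mock, where Lor (9.28%) and Sbsn (8.82%) were higher. Calm5 made up 0.998% and 0.370%, and Capns2 0.169% and 0.309%. There were 11349 Calm4 and 662 Calm5 transcripts there in SspA+HDM, and 1184 and 91 in mock, so that Calm4 outnumbered Calm5 by more than in the epidermis in both sections. The strips differed, with 5.48% and 4.53% of Calm4 outside cells in SspA+HDM and 5.25% and 3.44% in mock.

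The genes most like each member were found over 41 groups of cells, each 1 cluster in 1 section, by the Pearson correlation of log2(CPM + 50). The groups share libraries and depth, so the values are descriptions. Calm4 was most like Calm5 (0.948), then Rbp2 (0.918), a retinol-binding protein, Ivl (0.888), the cornified envelope protein involucrin, Them5 (0.881), a thioesterase, and Krt16 (0.854), a keratin of activated keratinocytes. Calm5 was most like Calm4, then Them5 (0.917), Rbp2 (0.909), Ivl (0.900) and Cnfn (0.895), the envelope protein cornifelin. Capns2 was most like Serpinb5 (0.901), the serpin maspin, Aqp3 (0.900), a water and glycerol channel, Sdc1 (0.893), a syndecan, Dsc3 (0.883), a desmosomal cadherin, and Fxyd3 (0.868), an ion pump regulator. Its correlation with Calm4 was 0.659 and with Calm5 0.583. The lists of Calm4 and Calm5 shared Rbp2, Ivl and Them5, and that of Capns2 shared no gene with them.

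Few relatives of these genes were on the panel. Of 31 EF-hand and S100 genes listed, 5 were measured, and in the whole section 1 was past 2-fold higher in SspA+HDM (Tnnc1, a muscle troponin, ratio 6.08) and 1 past 2-fold lower (Pvalb, muscle parvalbumin, ratio 0.413). Over all 346 genes 14.7% were higher and 12.7% lower by that size, so these counts say little about the list. Tnnc1 had 1452 transcripts in SspA+HDM and 70 in mock. The median log2 ratio of the 5 was -0.50, beside 0.046 over all genes. S100a14, a calcium-binding protein of epithelia, was at 28296 CPM in the epidermis of SspA+HDM and 23727 CPM in mock, a ratio of 1.19 (1.17 to 1.21). Its median lay at 0.74 of the way from the Lor to the Col17a1 midline in SspA+HDM and 0.77 in mock, nearer to Capns2 than to Calm4 or Calm5.

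No large subunit of a calpain and not the calpain inhibitor calpastatin was on the panel. The 3 genes of the list of calpains, other cysteine proteases and their inhibitors were Ctss, the protease cathepsin S, and Stfa2l1 and Cstdc4, of the family of cystatin-type inhibitors. In the epidermis Stfa2l1 was at 19848 CPM in SspA+HDM and 74.1 CPM in mock, and Cstdc4 at 26908 and 386 CPM. Ctss was at 1405 and 2520 CPM there. Both inhibitor genes were among the leading genes of clusters 11, 16, 4 and 2 of SspA+HDM, whose Capns2 levels are given above.

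Differentiation genes did not move as a block. In the epidermis 1 of 6 was at least 2-fold higher in SspA+HDM (Cnfn, 8758 against 1224 CPM in mock) and 1 at least 2-fold lower (Lce1m, 803 against 9180 CPM), and the median log2 ratio was 0.17. Over all 238 genes of the epidermis 16% were higher and 38.2% lower by that size, with a median of -0.64. Calm5 stood with Ivl (ratio 1.32) and Asprv1 (1.57), a protease that processes filaggrin, on the higher side, and Lor (0.803) and Sbsn (0.957) were on the lower side. Of 4 activation genes 2 were at least 2-fold higher, Krt16 (ratio 14.5) and Areg (6.25), and 2 at least 2-fold lower, Krt13 (0.139) and Mmp9 (0.0836), with a median of -0.10, beside the same shares and median over all genes.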

How the data were processed

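The authors deposited, for each section, a table of decoded transcripts with a quality score, position, cell and overlap with the nucleus (per the file headers). Cell outlines came as a further table. Positions were taken as µm. The decoding and segmentation software is not given in the sources used here. Gene transcripts with a deposited score of at least 20 were counted; no other value of the deposited tables was rescaled. That kept 91.2% of Calm4 in SspA+HDM and 91.9% in mock, 77.6% and 76.0% of Calm5, and 66.5% and 65.0% of Capns2, beside 78.1% and 79.4% of the panel. The highest control feature had 127 and 34 transcripts. RefSeq symbols were found for 378 of the 379 genes, and a synonym for 1.

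Sums have exact Poisson intervals, ratios (SspA+HDM over mock) exact conditional binomial intervals and shares Clopper-Pearson intervals, all at 95% and for counting error only. Ratios were taken where either section had 100 or more transcripts of a gene and counted by a 2-fold size. The ratio and its interval were tested on simulated data. No test of the treatment was run, with 1 section per group.

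Cells with at least 20 transcripts of both sections were clustered without integration and without the 3 genes: log1p of counts scaled to the median, 30 principal components, 15 neighbours and Leiden at resolution 1 (leidenalg 0.10.2, scikit-learn 1.9.0 and scipy 1.17.1 in Python 3.11.15). No doublet caller was run, and cells overlapping in the section were not separated. A cluster was named from marker lists, with at least 3 detected markers. Epithelial clusters were keratinocyte-like ones and those in which S100a14, Serpinb5, Trim29 and Dsc3 made up 8% or more, a rule set after the data had been seen. The surface was the 2nd percentile of epithelial cells, and the lower edge of the epidermis the 5th percentile of the rest, both in bins of 50 µm. Counts up to 50 µm above the surface were kept as epidermis. Levels of the whole section and of clusters use transcripts in cells, and levels of regions all transcripts placed there. Other quality limits, bins, denominators, cell sets, clusterings and single strips were tried as alternatives.

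The genes named are the 3 members, the 5 genes most like each in groups of at least 50 cells, and the measured genes of the fixed lists; leading genes of clusters, Col17a1 and Lor were added for orientation. The 3 genes and the lists were chosen with earlier results of these data known. Promoters were aligned with Biopython 1.88.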

Additional observations from a re-analysis of the deposited data

Results flagged for a closer look

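Capns2 moved in opposite directions in the 2 compartments of the epithelium. Its log2 ratio of SspA+HDM to mock was -0.98 in the epidermis and 0.61 in the follicle epithelium. The median over all genes measured moved the same way, at -0.64 in the epidermis and 0.16 in the follicle epithelium. The directions are thus not particular to Capns2. Over the 4 pairings of a strip of SspA+HDM with a strip of mock, the ratio of Capns2 ran from -1.12 to -0.83 in the epidermis. In the follicle epithelium it ran from 0.54 to 0.67. The pairings reuse the strips that gave these ratios and are no further check. The difference between the compartments was not tested, and strips are not replicates. Per area of epidermis the log2 ratio was 0.14, so the opposite directions hold for shares of the panel and not for counts per area. The area of mock reached further past the basal marker, and the part of this in that value was not tested.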

How the results depend on the processing

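Values are log2 ratios of SspA+HDM to mock, for Calm4, Calm5 and Capns2 in that order. In the whole section they were 0.80, 1.60 and 0.012. They became 0.89, 1.61 and 0.074 with a score of at least 30, 0.66, 0.57 and -0.34 over nuclei, 2.38, 3.17 and 1.58 per mm, 1.04, 1.83 and 0.25 per cell, 0.27, 1.08 and -0.51 in epithelial cells alone, and 0.89, 1.68 and 0.097 with the panel total without its 24 most different genes. With no quality filter Calm5 was at 1.54 and Capns2 at -0.046. Leaving out a strip gave 0.79 to 0.81, 1.56 to 1.64 and -0.045 to 0.077.

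In the epidermis the ratios were 0.090, 0.94 and -0.98. They became 2.33, 3.17 and 1.26 per mm, 1.21, 2.06 and 0.14 per area, and 0.32, 1.17 and -0.75 without the 24 genes. A score of at least 30 put Calm4 at 0.16, no quality filter put Calm5 at 0.90, and 100-µm bins put Capns2 at -1.04. In epithelial cells of the epidermis alone, an alternative chosen after seeing the data like that of the 24 genes there, Calm4 was at 0.031 and Calm5 at 0.89. Leaving out a strip gave 0.076 to 0.11, 0.88 to 1.01 and -1.07 to -0.87. In follicle epithelium, named clusters put Calm4 at 1.21 and Calm5 at 0.66, against 1.64 and 1.72 by position; leaving out a strip gave 1.52 to 1.75, 1.53 to 1.90 and 0.54 to 0.67. Capns2 therefore has no settled direction in the whole section, and in the epidermis its direction depends on the scale. The causes were not tested.

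With the surface at the 10th percentile the median depths in SspA+HDM and mock were 12.5 and 4.98 µm for Calm4, 0.916 and 5.53 µm for Calm5 and 29.0 and 9.67 µm for Capns2, against 34.7 and 13.1, 24.2 and 13.6, and 51.3 and 17.4 µm. The highest Calm5 level of a cluster stayed between 46219 and 53928 CPM in SspA+HDM and between 14904 and 18182 CPM in mock under 4 other clusterings. No paired analysis was possible because each treatment had 1 section.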

Other observations

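Cells that held 1 of the 3 genes were asked for the others, after thinning to 60 transcripts per cell. In the epidermis 99.2% of cells with Calm5 also had Calm4 in SspA+HDM, and 97.8% in mock, against 91.0% and 92.9% of cells without Calm5. Cells with Capns2 had Calm5 less often than cells without it, at 44.2% against 56.9% in SspA+HDM and 49.0% against 54.2% in mock. In follicle epithelium this did not hold, with 6.32% against 5.21% in SspA+HDM and 2.28% against 2.22% in mock. There 87.6% of the 498 cells with Calm5 had Calm4 in SspA+HDM, and 73.7% of 57 in mock, against 28.0% and 12.4% of cells without Calm5. Calm4 was seen in 36.4% of follicle cells with Capns2 and 29.4% of those without in SspA+HDM, and in 15.1% and 13.5% in mock. Cells of a section are not replicates, outlines may hold transcripts from neighbouring cells, and no test was run on these shares.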
